A study of Mus musculus with 4 samples.

Results

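Sprr1a, Msln, Fscn1, Ckb and Dio3 are 5 of the 24493 gene symbols measured in cultured mouse liver cells, chosen by their measured levels, which stood among those with the largest excess in biliary cells over hepatocytes. Total RNA was sequenced in 4 libraries, all from C57BL/6 cells that received no treatment. The Bil_2D libraries came from biliary cells derived from hepatocytes and grown in 2D culture, and the Hep_3D libraries from hepatocytes grown in 3D culture. Each group had 2 libraries, replicate 1 from clone 15C7 and replicate 2 from clone 19H5, so that each cell state was sampled once in each of the same 2 clones. The age and number of the donor mice were not given in the sources used here. Cell state and culture format changed together and cannot be told apart. In bulk RNA, fewer cells of a type and less RNA per cell cannot be told apart either.

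The 5 genes belong to unrelated families. Sprr1a encodes a small proline-rich precursor of the cornified envelope, the crosslinked protein shell that squamous epithelial cells lay down beneath their membrane. Sprr1a is also known in mice as a gene switched on by injury and stress, for instance in regenerating neurons. Msln encodes mesothelin, a surface protein anchored by a lipid tail that marks mesothelial cells and several carcinomas. Fscn1 encodes fascin, which packs actin filaments into the tight bundles of filopodia. Ckb is the brain-type cytosolic creatine kinase, which moves phosphate between ATP and creatine where energy demand is high. Dio3 is the type 3 deiodinase, a selenoenzyme that inactivates thyroid hormones. It is encoded in an imprinted gene cluster and is typical of fetal tissues.

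The genes lie on 4 mouse chromosomes in the GENCODE annotation of GRCm38, the assembly also called mm10, which the submitters' processing notes name. Sprr1a occupies bases 92483952 to 92485895 of chromosome 3 on the minus strand and has 2 exons. Msln spans 25748613 to 25754378 of chromosome 17 on the minus strand, with 16 exons. Fscn1 spans 142960343 to 142973185 of chromosome 5 on the plus strand, with 5 exons. Ckb, with 8 exons, spans 111669361 to 111672338 of chromosome 12 on the minus strand. Dio3, with 1 exon, occupies 110279068 to 110281097 of the same chromosome on the plus strand, 1.39 Mb away from Ckb. Between them start 24 other genes of the expression table.

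Promoter sequences were read for the 4 of the 5 genes with a RefSeq entry (GRCm38.p6), which left out Msln. The sequences are shown because the 4 promoters, from genes of unrelated families, all hold the same TATA box letters, TATAAA. Each is the 250 bases before the RefSeq start, written 5′ to 3′ along the gene's own strand. They come from chr3:92485882-92486131 (minus strand, Sprr1a), chr5:142960105-142960354 (plus strand, Fscn1), chr12:111672339-111672588 (minus strand, Ckb) and chr12:110278980-110279229 (plus strand, Dio3). Capitals mark TATAAA, the AP-1 motif TGANTCA and the TEAD motif GGAATG.
Sprr1a: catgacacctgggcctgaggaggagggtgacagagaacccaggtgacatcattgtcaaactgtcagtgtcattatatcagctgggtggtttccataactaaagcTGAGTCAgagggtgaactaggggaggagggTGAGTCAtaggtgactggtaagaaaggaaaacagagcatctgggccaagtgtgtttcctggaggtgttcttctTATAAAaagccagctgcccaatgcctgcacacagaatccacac
Fscn1: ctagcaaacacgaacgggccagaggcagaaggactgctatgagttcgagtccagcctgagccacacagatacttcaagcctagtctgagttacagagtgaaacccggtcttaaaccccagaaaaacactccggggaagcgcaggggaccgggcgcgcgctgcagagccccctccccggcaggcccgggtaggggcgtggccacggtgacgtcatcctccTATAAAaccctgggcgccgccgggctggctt
Ckb: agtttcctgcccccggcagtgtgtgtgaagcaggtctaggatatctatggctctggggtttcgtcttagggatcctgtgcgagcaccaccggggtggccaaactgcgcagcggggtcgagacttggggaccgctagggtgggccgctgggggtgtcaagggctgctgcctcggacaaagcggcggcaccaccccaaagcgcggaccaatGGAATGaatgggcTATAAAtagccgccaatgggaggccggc
Dio3: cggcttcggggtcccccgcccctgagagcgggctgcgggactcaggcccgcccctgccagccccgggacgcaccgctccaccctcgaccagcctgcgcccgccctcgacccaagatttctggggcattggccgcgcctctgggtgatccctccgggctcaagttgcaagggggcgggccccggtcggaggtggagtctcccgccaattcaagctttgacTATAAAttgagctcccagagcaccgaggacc

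TATAAA was present in 4 of the 4 promoters, against 13.6% of all 32851 RefSeq promoters and 9.05% of the promoters of 9568 genes that reached 1 TPM in at least 2 libraries. The window searched ran from 250 bases before to 50 bases after the start, on both strands. Of the 10 other genes with the largest excess in Bil_2D, 6 had a RefSeq promoter and 0 of them held TATAAA. The box began 43 bases before the RefSeq start in Sprr1a, 31 in Fscn1, 28 in Ckb and 31 in Dio3. In 3 of the 4 genes it therefore fell between 40 and 20 bases before the start on the gene's own strand, where 1.99% of all promoters hold it. Counted from the GENCODE starts, which differ from the RefSeq ones except in Ckb, it began 29 bases before the start in Sprr1a, 19 in Fscn1 and 28 in Ckb, and inside the transcript in Dio3. By those starts Sprr1a and Ckb, 2 of the 4, fell within that window. A match to letters is a description and shows no binding or use of a site.

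No other motif searched was in all 4 promoters. TGANTCA, the letters bound by AP-1 factors, occurred only in Sprr1a among the 4, as TGAGTCA at 146 and again at 116 bases before the start. It was found in 7.81% of all promoters. GGAATG, the TEAD motif, occurred only in Ckb, 41 bases before the start, against 14.7% of all promoters. The GC box GGGCGG occurred only in Dio3, against 35.7% of all promoters and 69.1% of the promoters of genes that met the 1 TPM filter. The E-box CANNTG occurred in Sprr1a and Dio3 (72.3% and 66.8%), and the C/EBP motif TTNCNNAA only in Sprr1a (40.7% and 35.6%). The CArG box of serum response factor occurred in 0 of the 4, against 1.63% of all promoters. The printed Sprr1a sequence contained 0 CpG dinucleotides at 49.6% GC. Those of Fscn1, Ckb and Dio3 held 18, 16 and 21 CpGs at 62.4%, 62.8% and 69.6% GC, where the median over all promoters was 6 CpGs and 52.4% GC. The 4 promoters thus shared the TATAAA letters across CpG-free and CpG-rich sequence.

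Sprr1a was among the most abundant RNAs of the biliary cells and under 3 TPM in the hepatocytes. Levels are in TPM, each library scaled to a total of 1000000, a share of each library corrected for transcript length, so levels of different genes can be set side by side. Sprr1a had 11308 TPM in Bil_2D clone 15C7 and 9330.4 TPM in Bil_2D clone 19H5, against 2.80 and 2.75 TPM in Hep_3D of the same clones. Sprr1a alone made up 1.13% and 0.933% of all TPM in the Bil_2D libraries. Only 3 gene symbols stood above it in Bil_2D clone 15C7, where it ranked 4, and it ranked 5 in clone 19H5. In Hep_3D it ranked 10059 and 9732. The mean was 10319 ± 1398 TPM in Bil_2D and 2.77 ± 0.0381 TPM in Hep_3D (SD, n = 2 each). Within clone 15C7 the Bil_2D level was 4038 times the Hep_3D level, and within 19H5 3397 times.

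Msln had 324 and 828 TPM in Bil_2D clones 15C7 and 19H5, against 2.76 and 9.92 TPM in Hep_3D of the same clones. Clone 19H5 was the higher one in both cell states, by a similar proportion, since 15C7 held 0.391 of the 19H5 level in Bil_2D and 0.279 in Hep_3D. Its mean was 576 ± 357 TPM in Bil_2D and 6.34 ± 5.06 TPM in Hep_3D (SD, n = 2 each). The Bil_2D to Hep_3D ratio was 117 within 15C7 and 83.5 within 19H5. The 2 clones thus differed in the level of Msln more than in the ratio of its levels between states.

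Fscn1 had 74.6 TPM in Bil_2D clone 15C7 and 129 TPM in Bil_2D clone 19H5, against 0.887 and 0.876 TPM in the Hep_3D libraries. Both hepatocyte libraries were under 1 TPM and nearly equal, so the difference between clones lay in the biliary cells. Ckb had 758 and 571 TPM in Bil_2D clones 15C7 and 19H5, against 12.7 and 23.8 TPM in Hep_3D. Ckb was the member with the most RNA in hepatocytes, and its clones stood in opposite order in the 2 states. The Bil_2D to Hep_3D ratio of Ckb was 59.6 within 15C7 and 24.0 within 19H5, and that of Fscn1 was 84.1 and 148.

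Dio3 had 68.4 and 23.1 TPM in Bil_2D clones 15C7 and 19H5, against 0.229 and 0.123 TPM in Hep_3D. It was the least abundant of the 5 in both states, and in Bil_2D its level in 15C7 was 2.97 times that in 19H5, the widest clone ratio among the 5 in that state. The Bil_2D to Hep_3D ratio was 298 within 15C7 and 187 within 19H5. Means were 102 ± 38.7 TPM for Fscn1, 665 ± 132 TPM for Ckb and 45.7 ± 32.1 TPM for Dio3 in Bil_2D (SD, n = 2). In Hep_3D they were 0.882 ± 0.0077 TPM for Fscn1, 18.3 ± 7.82 TPM for Ckb and 0.176 ± 0.0751 TPM for Dio3 (SD, n = 2). For each of the 5 genes both biliary libraries lay above both hepatocyte libraries, as for 71.9% of all genes that reached 1 TPM in at least 2 libraries, and the choice of the 5 fixes that order. The lower Bil_2D value exceeded the higher Hep_3D value 3332 times for Sprr1a, 101 times for Dio3, 84.1 times for Fscn1, 32.6 times for Msln and 24.0 times for Ckb.

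**Figure D1:**
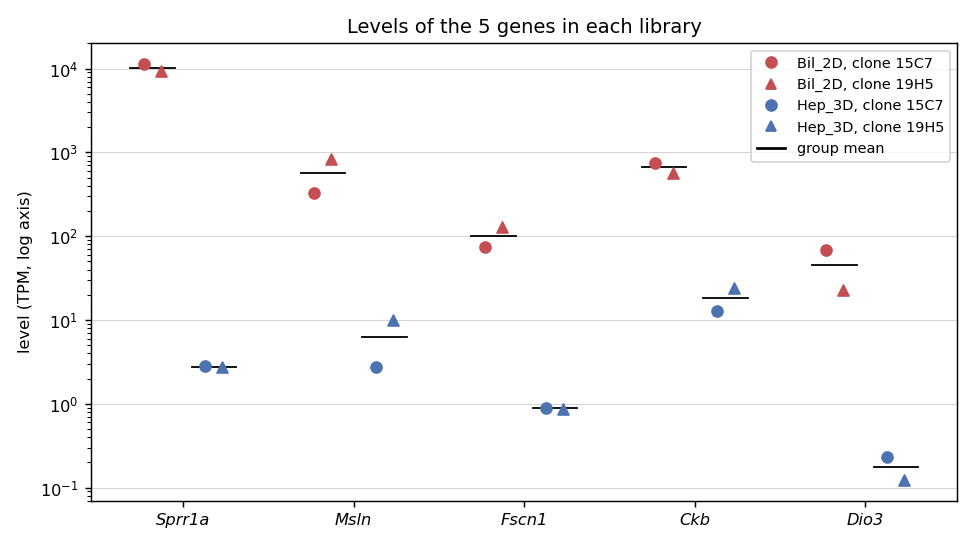
Levels of the 5 genes in TPM (log axis) in Bil_2D (red) and Hep_3D (blue), with clone 15C7 as circles, clone 19H5 as triangles and the group mean as a line. For every gene both Bil_2D points lie above both Hep_3D points, and Sprr1a stands apart at 11308 and 9330.4 TPM.

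The order of the genes differed between the states. In Bil_2D Sprr1a was highest, Ckb and Msln followed with overlapping ranges, then came Fscn1 and Dio3. In Hep_3D Ckb was highest, Msln and Sprr1a overlapped in the next place, and Fscn1 and Dio3 again came last. Sprr1a thus stood highest in the biliary cells, while in hepatocytes its level did not separate from that of Msln. The hepatocyte levels of Fscn1 and Dio3 were below 1 TPM in both libraries, and with no read counts behind the TPM the error of such low values is unknown. These 2 genes met the filter of 1 TPM in at least 2 libraries only through their biliary levels.

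On the log2(TPM + 1) scale the difference Bil_2D minus Hep_3D was 11.41 for Sprr1a, 6.34 for Msln, 5.72 for Fscn1, 5.16 for Ckb and 5.12 for Dio3. These differences chose the genes and are given as a description without a test. Adding 1 to each value understates the change of low genes, which touches Dio3 and Fscn1 most: with a pseudocount of 0.1 in place of 1 the difference was 7.20 for Dio3 and 6.65 for Fscn1, and with 5 it was 3.13 and 4.14. Ranked by this difference among the 12336 genes that met the filter, Sprr1a was 1, Msln 3, Fscn1 6, Ckb 9 and Dio3 10. The other 5 genes of the top 10 were Krt19, Hmga1b, Id3, Stra6 and Cyr61. Dio3 at 5.12 was the last of the 5 members, and the next gene below it, Gm12603, stood at 5.07. Over all genes that met the filter the median difference was 0.73, the 99th percentile was 3.36 and 11 genes reached 5 or more.

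Most genes had higher TPM in the biliary cells, which sets the background for any count. With limma's moderated test and Benjamini-Hochberg adjustment over the 12336 genes, 6402 rose (51.9%) and 839 fell (6.8%) in Bil_2D, together 58.7%. With 1 library left out, 2193 (without Bil_2D clone 19H5) to 3950 (without Hep_3D clone 15C7) rose. Median-of-ratios size factors, which set the typical gene equal between libraries, differed by 0.82 log2 units between the groups. On that scale the median difference was 0.02, 9.54% of genes rose, 11.9% fell, and 34.7% had both Bil_2D values above both Hep_3D values. The differences of the 5 genes were then 10.69 for Sprr1a, 5.59 for Msln, 5.11 for Fscn1, 4.36 for Ckb and 4.65 for Dio3, ranked 1, 3, 6, 12 and 8. Leaving out 1 library on the median-of-ratios scale gave 20 (without Bil_2D clone 19H5) to 303 (without Hep_3D clone 15C7) higher calls, in place of 1177 with all 4 libraries.

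**Figure D2:**
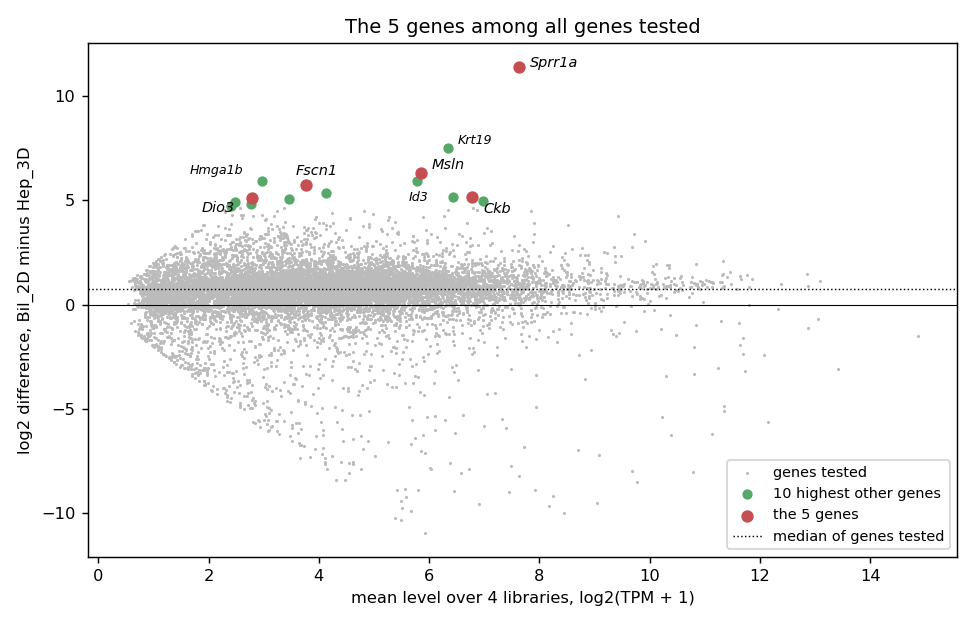
Difference Bil_2D minus Hep_3D on the log2(TPM + 1) scale against the mean level over the 4 libraries for the 12336 genes that met the filter, with the 5 genes in red, the 10 highest other genes in green and the median of all genes, 0.73, as a dotted line. Sprr1a stands apart at 11.41, and the remaining 4 red points lie among the green ones between 5.12 and 6.34.

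The genes next to them in that ranking included an established biliary keratin. Krt19, a keratin of bile duct cells, had 752 and 1615 TPM in Bil_2D, against 1.12 and 15.9 TPM in Hep_3D, and rose by 7.53 log2 units (limma adjusted p = 0.00873, and 0.0546 without Bil_2D clone 19H5). Id3, which holds back basic helix-loop-helix transcription factors, had 634 and 293 TPM in Bil_2D, against 16.7 and 1.81 TPM in Hep_3D. Its difference was 5.94 (limma adjusted p = 0.0111, and 0.0637 and 0.0522 without Bil_2D clone 15C7 or 19H5). Stra6, a retinol transporter, rose by 5.38 (adjusted p = 0.00594), and Cyr61, a matricellular protein, by 5.17 (adjusted p = 0.00555). Hmga1b stood at 58.9 and 61.9 TPM in Bil_2D, against listed zeros in Hep_3D. Its sequence is nearly that of Hmga1, so its separate value is uncertain. Below Dio3 came Gm12603, Tspan8, Snord17, Rasl11a and Serpinb9b, with differences between 4.74 and 5.07. Of these 10 genes Krt19 and Tspan8 are biliary markers in the list used to check the labels, and none is a relative of the 5 members.

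Sprr1a belongs to a cluster of small proline-rich genes, and in these cells it carried nearly all of their RNA. It made up 99.7% and 99.5% of the summed TPM of 15 Sprr symbols in Bil_2D, against 86.2% and 67.5% in Hep_3D. Its closest relative Sprr1b, with 83.3% identical aligned coding bases, had 20.4 and 23.5 TPM in Bil_2D, against 0 and 0.118 TPM in Hep_3D (difference 4.44, limma adjusted p = 0.00258). Because the coding sequences are alike, reads of the far more abundant Sprr1a could be assigned to Sprr1b, and the separate value of Sprr1b is uncertain. Sprr3, with 70.8% identity, was listed at 0 in 3 libraries and at 0.08 TPM in Hep_3D clone 19H5. Sprr2a2 rose to 6.12 and 7.01 TPM in Bil_2D, against 0.448 and 0.14 TPM in Hep_3D (adjusted p = 0.00537), while Sprr2d, Sprr2e, Sprr2f and Sprr4 were listed at 0 in every library. In Bil_2D the relatives thus stood far below Sprr1a, with Sprr1b the highest of them.

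Among 33 other cornified envelope genes in the table, 15 met the filter, of which 10 rose, 0 fell and 5 did not pass the test. By comparison, 51.9% of all genes rose and 6.8% fell. Sprr1b, Sprr2a2, Sprr2b, Sprr2g, Ivl, Tchh and Evpl met the filter only through Bil_2D, so they could not be called lower. They enter the list median, and Sprr1b, Sprr2a2, Sprr2b and Tchh are among the 10 that rose. The median of the 15 was 1.86, beside 0.73 for all genes, and on the median-of-ratios scale 7 rose with a median of 1.14. Leaving out 1 library gave 8 to 10 higher calls, and 0 to 2 on the median-of-ratios scale, with 0 without Bil_2D clone 19H5. Ppl encodes periplakin, which links keratin filaments to the envelope. It had 107 and 185 TPM in Bil_2D, against 7.92 and 17.7 TPM in Hep_3D (difference 3.45, limma adjusted p = 0.00797). S100a10, a calcium-binding protein family member that partners annexin A2, had 886 and 1051 TPM in Bil_2D, against 151 TPM in each Hep_3D library (difference 2.67, adjusted p = 0.00312). Lor, which encodes the envelope protein loricrin, reached 13.3 and 9.68 TPM in Bil_2D, against 1.02 and 2.00 TPM in Hep_3D (adjusted p = 0.00737). Anxa1, an annexin of the envelope, rose by 3.92 (adjusted p = 0.0158), but not without Bil_2D clone 19H5 (0.0646), without Hep_3D clone 15C7 (0.0628) or after median-of-ratios scaling (0.0622). Involucrin (Ivl) had 4.99 and 1.28 TPM in Bil_2D, against 0.709 and 0.158 TPM in Hep_3D (adjusted p = 0.0898, and 0.0273 with clone as a block). Krtdap, Flg2 and Hrnr, genes of terminally differentiated epidermis, were listed at 0 throughout. Not every gene of the list was higher in Bil_2D. Sbsn had 8.98 and 5.27 TPM in Bil_2D, against 7.09 and 12.96 TPM in Hep_3D (difference -0.427, limma adjusted p = 0.382). On the median-of-ratios scale the Sbsn difference was -1.151 (limma adjusted p = 0.106). Tgm1, below the filter, had 0.258 and 0.0591 TPM in Bil_2D, against 4.16 and 0.203 TPM in Hep_3D. Tgm3 and Tgm5 had at most 0.185 and 0.0972 TPM.

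Squamous keratins did not accompany Sprr1a at a comparable level. The 17 squamous epithelium markers (Krt5, Krt14, Trp63 and others) summed to 123 and 177 TPM in Bil_2D, against 37.3 and 41.0 TPM in Hep_3D. Only 3 of them met the filter, of which 2 rose and 1 did not pass the test, and 0 rose on the median-of-ratios scale. Of all genes 51.9% rose, and 9.54% on the median-of-ratios scale. Perp, a desmosome-associated protein that many epithelia express, gave 111 and 170 TPM of the sum in Bil_2D, against 30.9 and 38.2 TPM in Hep_3D. It was the 1 marker called with any library left out, as Krt10 was called in 0 of the 4 leave-outs. In Bil_2D 6 of the 17 were listed at 0 in each library, and 7 in each Hep_3D library.

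Msln is the defining marker of mesothelium, and most other mesothelial markers were at or near 0. Of 14 others in the table, 2 met the filter. Efemp1, a matrix glycoprotein, had 135 and 128 TPM in Bil_2D, against 43.2 and 56.3 TPM in Hep_3D, and rose by 1.40 (limma adjusted p = 0.00712), though not after median-of-ratios scaling (0.59, adjusted p = 0.0933). Slpi, a secreted protease inhibitor, had 47.3 and 79.1 TPM in Bil_2D, against 107 and 23.3 TPM in Hep_3D (adjusted p = 0.775). Upk3b, Bnc1, Calb2 and Rspo1 were listed at 0 in all 4 libraries, and Wt1, the mesothelial transcription factor, reached at most 0.104 TPM. Mslnl, the mesothelin-like relative, with 59.7% identity, was at 0.272 and 0.777 TPM in Bil_2D, against listed zeros in Hep_3D. Msln held 99.9% of the summed TPM of the pair in both Bil_2D libraries and 100% in both Hep_3D libraries.

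**Figure D3:**
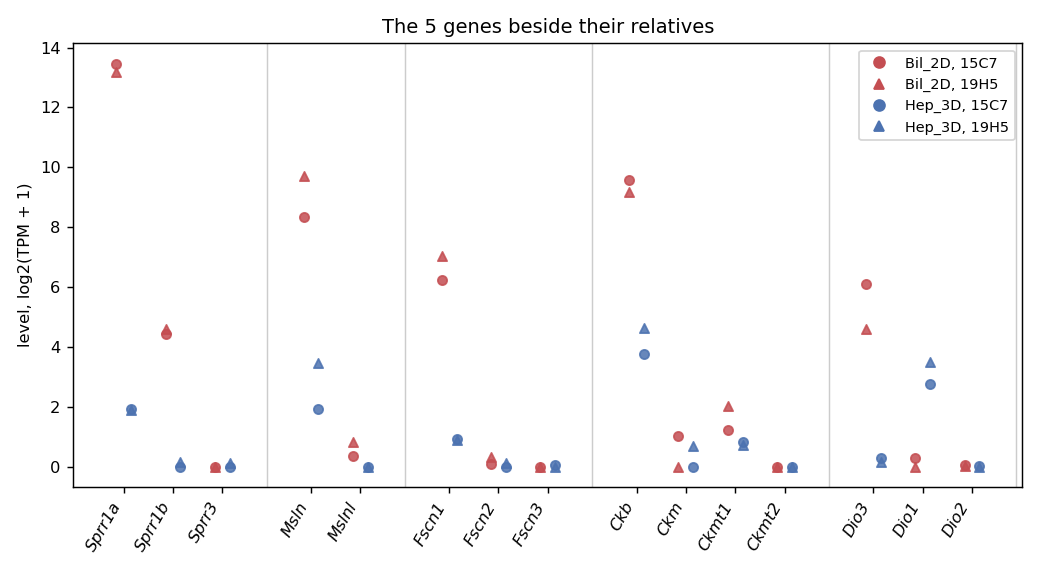
Levels of the 5 genes and their named relatives on the log2(TPM + 1) scale in each library, Bil_2D in red and Hep_3D in blue, with clone 15C7 as circles and 19H5 as triangles. In Bil_2D each of the 5 stands above all of its relatives, and Dio1 is the relative with both Hep_3D points well above both Bil_2D points.

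Fscn1 was the only fascin with appreciable RNA, and 16 other actin bundling genes rose. It held 99.9% and 99.8% of the summed fascin TPM in Bil_2D, against 94.8% and 90.6% in Hep_3D. Fscn2, the retinal fascin with 63.7% identity, stayed at or below 0.252 TPM, and Fscn3, the testis fascin with 56.9% identity, was listed at 0 in all but Hep_3D clone 15C7 (0.0482 TPM). Of 27 other actin bundling genes 22 met the filter, and 16 rose, 1 fell and 5 did not pass the test, where 51.9% of all genes rose and 6.8% fell. Their median was 1.53, against 0.73 for all genes, and median-of-ratios scaling gave 8 higher and 1 lower with a median of 0.72. Without 1 library 9 to 12 rose, with 9 when Bil_2D clone 15C7 and 10 when Hep_3D clone 19H5 was left out.

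Marcks, a membrane protein that binds and crosslinks actin, had 171 and 154 TPM in Bil_2D, against 13.1 and 19.2 TPM in Hep_3D (difference 3.28, limma adjusted p = 0.0041). Actn1, which encodes the crosslinker alpha-actinin 1, had 300.3 and 330.3 TPM in Bil_2D, against 35.8 and 51.4 TPM in Hep_3D (difference 2.85, adjusted p = 0.00454). Both also rose on the median-of-ratios scale, by 2.48 and 2.04. Dbn1, the actin side-binding protein drebrin, and Marcksl1 rose by 3.10 and 2.97 (adjusted p = 0.0479 and 0.0187) but did not pass on the median-of-ratios scale (0.127 and 0.0699). Dbn1 passed without Bil_2D clone 19H5 and in no other leave-out, where its adjusted p ran up to 0.191. Marcksl1 likewise passed in 1 leave-out only, with 0.0949 at most. Actn3, the fast-muscle actinin, had 0.122 and 0.28 TPM in Bil_2D, against 7.62 and 3.74 TPM in Hep_3D, and was the 1 gene that fell (adjusted p = 0.00921, and 0.0558 and 0.0517 without Bil_2D clone 15C7 or 19H5).

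Ckb supplied almost all creatine kinase RNA in both states. It held 99.7% and 99.5% of the summed TPM of 4 creatine kinases in Bil_2D, against 94.2% and 94.9% in Hep_3D. The muscle enzyme Ckm, with 76.5% identity, had at most 1.05 TPM. The mitochondrial Ckmt1, with 67.1% identity, had 1.34 and 3.04 TPM in Bil_2D, against 0.777 and 0.658 TPM in Hep_3D (limma adjusted p = 0.0959), and Ckmt2 was listed at 0 in every library. Creatine synthesis takes the enzymes Gatm and Gamt. Gatm had 0.998 and 1.62 TPM in Bil_2D, against 0.0703 and 0.0629 TPM in Hep_3D, and was below the filter. Gamt fell, with 36.3 and 26.2 TPM in Bil_2D, against 53.9 and 68.5 TPM in Hep_3D (difference -0.95, adjusted p = 0.0261). The creatine transporter Slc6a8 had 69.1 and 55.4 TPM in Bil_2D, against 38.2 and 30.8 TPM in Hep_3D (difference 0.83, adjusted p = 0.0234), a difference near the median of all genes and 0.03 after median-of-ratios scaling (adjusted p = 0.904). Neither call of Gamt or Slc6a8 held when any 1 library was left out, with adjusted p up to 0.113 and 0.108.

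Of the 14 other creatine and adenylate kinase genes, 8 met the filter, and 3 rose, 1 fell and 4 did not pass the test, with a median of 0.79. Over all genes 51.9% rose and 6.8% fell, with a median of 0.73. Without Bil_2D clone 15C7 1 rose, without any other library 2 rose, and 0 fell with any library left out. Adenylate kinases interconvert ATP, ADP and AMP. Ak1, the cytosolic form, had 21.5 and 17.2 TPM in Bil_2D, against 3.68 and 1.55 TPM in Hep_3D (difference 2.55, limma adjusted p = 0.00825, and 0.0536 without Bil_2D clone 15C7). Ak6, a nuclear form, had 75.0 and 61.1 TPM in Bil_2D, against 18.3 and 17.5 TPM in Hep_3D (difference 1.86, adjusted p = 0.00513). On the median-of-ratios scale Ak1 and Ak6 were the 2 genes that rose, and Gamt and the mitochondrial Ak3 the 2 that fell. Over all genes 9.54% rose and 11.9% fell on that scale.

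Dio3 was the leading deiodinase in Bil_2D and Dio1 in Hep_3D. Dio1, the type 1 deiodinase of liver, had 0.226 TPM and a listed 0 in Bil_2D clones 15C7 and 19H5, against 5.78 and 10.2 TPM in Hep_3D. It fell by 2.98 log2 units (limma adjusted p = 0.00619), and it also passed the test with each library left out and after median-of-ratios scaling (-3.38, adjusted p = 0.0106). Because Dio1 reached 1 TPM only in Hep_3D, the filter left lower as its only possible call. Dio2, the type 2 enzyme that activates thyroid hormone, had at most 0.0522 TPM. Dio3 made up 99.6% and 99.9% of the summed deiodinase TPM in Bil_2D, against 3.81% and 1.19% in Hep_3D. Dio3 and Dio1 share 60.1% of aligned coding bases.

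The thyroid hormone list held calls in both directions on the TPM scale, and only lower ones after median-of-ratios scaling. Of 28 genes besides Dio3, 24 met the filter, and 5 rose, 7 fell and 12 did not pass the test, with a median of -0.11. Dio1 and Thrsp met the filter only through Hep_3D, so they could not be called higher. They enter the median and are among the 7 that fell. For all genes the shares were 51.9% higher and 6.8% lower, with a median of 0.73. Serpina7, the thyroxine-binding globulin of plasma, had 8.94 and 17.3 TPM in Bil_2D, against 307 and 234 TPM in Hep_3D (difference -4.32, limma adjusted p = 0.00507). Sult1a1, a sulfotransferase, fell by 2.91 (adjusted p = 0.0218), and Rxra, the retinoid X receptor that pairs with thyroid hormone receptors, by 2.52 (adjusted p = 0.0139). Sult1a1 passed without Hep_3D clone 15C7 only among the leave-outs, with adjusted p up to 0.0879, and Rxra did not pass without Hep_3D clone 15C7 or 19H5 (0.065 and 0.076). The hormone receptor gene Thra had 13.4 and 7.71 TPM in Bil_2D, against 7.02 and 8.37 TPM in Hep_3D (adjusted p = 0.339), and Thrb had 2.25 and 1.65 TPM, against 4.15 and 3.32 TPM (adjusted p = 0.063, and 0.0394 with clone as a block). Genes that rose had small differences, among them Slc7a5, an amino acid transporter that also carries thyroid hormone, 0.998 (adjusted p = 0.0466), and Eefsec and Pstk, which serve selenocysteine incorporation, 0.80 (0.0128) and 0.78 (0.0148). None of these 3 passed on the median-of-ratios scale or in more than 1 of the 4 leave-outs. Of the other genes in the list that serve selenocysteine incorporation, Sephs2 fell (difference -1.18, limma adjusted p = 0.00831). On the median-of-ratios scale the Sephs2 difference was -1.996 (limma adjusted p = 0.0062). Secisbp2 and Sepsecs did not pass the test (limma adjusted p = 0.0912 and 0.98). The differences of Eefsec and Pstk were near the median of all genes, 0.73. On the median-of-ratios scale they were 0.03 and 0.02 (limma adjusted p = 0.895 and 0.941). Of these selenocysteine genes only Sephs2 was thus called on both scales. After median-of-ratios scaling 0 of the 24 rose and 10 fell. Without 1 library 0 to 2 rose and 3 to 5 fell, with 0 higher calls when either Bil_2D library was left out and 3 lower calls without Hep_3D clone 19H5.

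**Figure D4:**
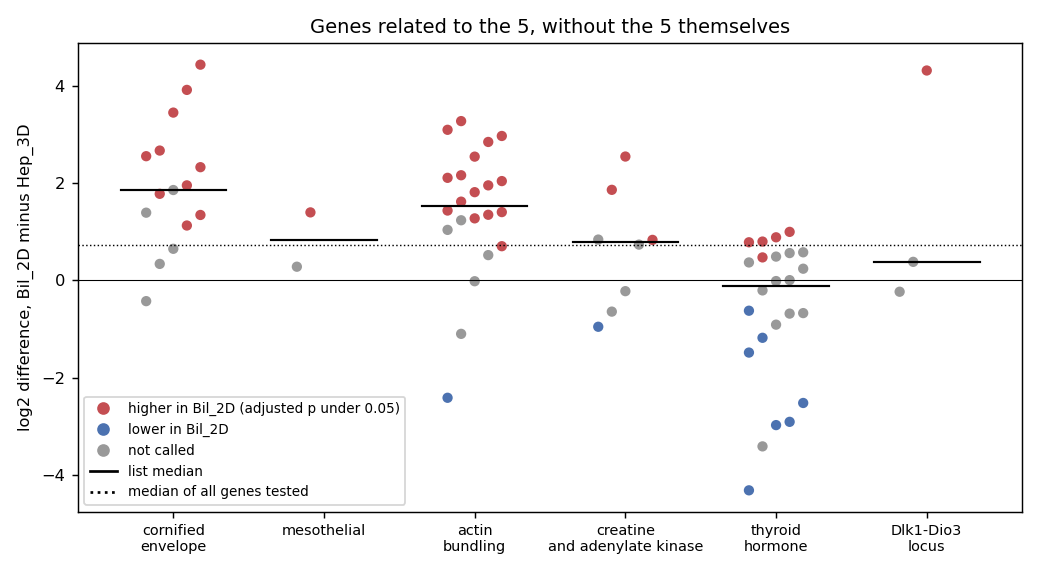
Difference Bil_2D minus Hep_3D on the log2(TPM + 1) scale for the genes of 6 related lists that met the filter, without the 5 genes themselves, coloured by limma's call at adjusted p under 0.05, with list medians as bars and the median of all genes, 0.73, as a dotted line. The cornified envelope and actin bundling medians, 1.86 and 1.53, lie above the dotted line and the thyroid hormone median, -0.11, below it.

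At the Dio3 locus the divergent non-coding neighbour Dio3os also rose, while the imprinted protein-coding and non-coding genes farther along the cluster were near 0. Dio3os is a non-coding RNA at bases 110275385 to 110278172 of chromosome 12 on the minus strand, so that it runs away from Dio3, and its start lies 0.896 kb before that of Dio3. It had 36.5 and 19.2 TPM in Bil_2D, against 0.0725 and 0.778 TPM in Hep_3D, a difference of 4.32 (limma adjusted p = 0.0057). It passed with each library left out and after median-of-ratios scaling (3.81, adjusted p = 0.0141), though not on that scale with any 1 library left out. The microRNA gene Mir1247 lies inside Dio3os on the same strand and had 15.0 and 5.83 TPM in Bil_2D and listed zeros in Hep_3D (adjusted p = 0.00797), and reads of the 2 cannot be told apart. As the library strand was not stated, the strand of origin of these reads is likewise uncertain. Dio3os and Mir1247 reached 1 TPM only in Bil_2D, so the filter left higher as their only possible call. Dio3, Dio3os and Mir1247 all had more RNA in clone 15C7 than in 19H5 in Bil_2D. In Hep_3D Dio3os stood in the opposite order.

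Of the 9 other genes listed for the Dlk1-Dio3 locus 3 met the filter, of which 1 (Dio3os) rose, 0 fell and 2 did not pass the test. Over all genes 51.9% rose and 6.8% fell. The imprinted genes of the cluster were near 0 in every library: Dlk1 had at most 0.236 TPM, the maternally expressed non-coding RNA Meg3 at most 0.173 TPM, and Rtl1, Rian, Mirg and Begain at most 0.284 TPM. The flanking genes Wdr25 and Ppp2r5c had adjusted p of 0.349 and 0.0771. Wdr25 had 1.95 and 2.04 TPM in Bil_2D, against 2.52 and 2.53 TPM in Hep_3D, and Ppp2r5c had 40.6 and 46.4 TPM, against 32.2 and 34 TPM.

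Genes that start within 200 kb of a member were described in the same way. Around Sprr1a 5 of 19 neighbours met the filter and 3 rose, namely Sprr1b, Sprr2b (in 1 of the 4 leave-outs) and Lce6a (in 2 of them), a late cornified envelope gene with 13.6 and 2.89 TPM in Bil_2D, against 0.28 and 0 TPM in Hep_3D (limma adjusted p = 0.0299). Of these only Sprr1b also rose on the median-of-ratios scale. With clone as a block all 5 passed. All 5 reached 1 TPM only in the Bil_2D libraries, so the filter left higher as their only possible call. Around Msln 12 of 19 rose with a median of 0.79, and with median-of-ratios scaling 2 were higher and 1 lower. Leaving out Bil_2D clone 15C7 gave 1 higher call there, Bil_2D clone 19H5 2, Hep_3D clone 15C7 8 and Hep_3D clone 19H5 7. Around Fscn1 3 of 4 rose, 1 after median-of-ratios scaling, 2 without Bil_2D clone 19H5 and 1 without any other library. Among them was Actb, the cytoplasmic beta-actin gene, whose start lies at -53.6 kb relative to that of Fscn1, with 2355 and 2036 TPM in Bil_2D, against 654 and 487 TPM in Hep_3D (difference 1.95, adjusted p = 0.00598, or 1.14 and adjusted p = 0.0284 after median-of-ratios scaling). Around Ckb 4 of 9 rose, and 0 after median-of-ratios scaling. With Bil_2D clone 19H5 left out 0 rose there, without Hep_3D clone 15C7 3, and without either remaining library 2. Around Dio3 2 of 3 rose, Dio3os and Mir1247, which also reached 1 TPM only in Bil_2D. In all 51.9% of the genes tested rose, so these shares are given as a description.

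**Figure D5:**
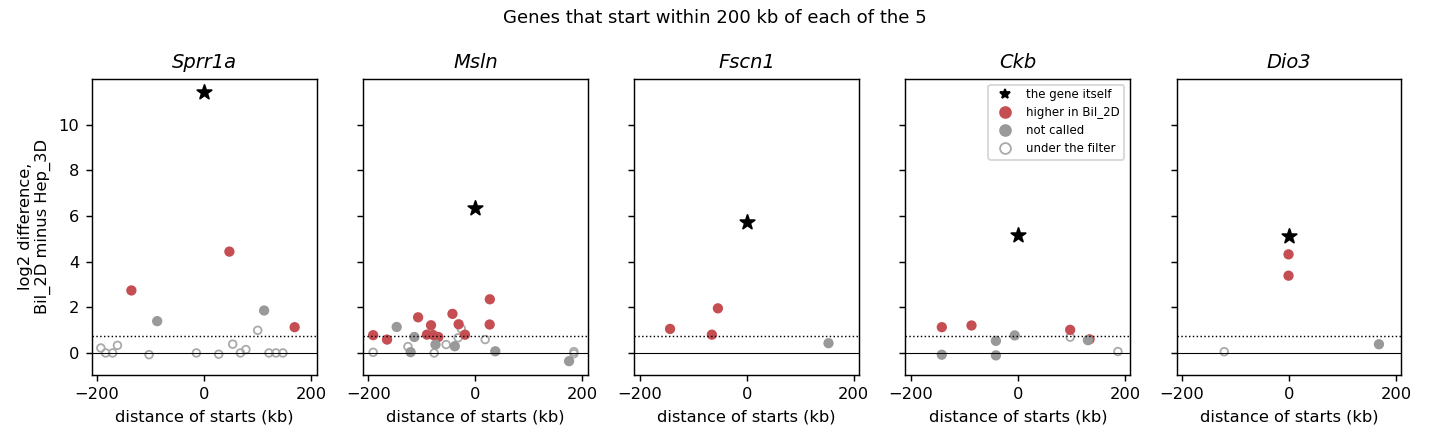
Difference Bil_2D minus Hep_3D on the log2(TPM + 1) scale for genes that start within 200 kb of each of the 5 genes, against the distance between starts in kb, positive downstream in the direction of the gene's transcription. Red points rose, grey points did not pass the test, open circles were under the filter and the star is the gene itself. In each panel the star lies above all neighbours, most closely for Dio3 at 5.12 with Dio3os at 4.32.

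The clones, which the choice of the 5 genes did not set against each other, were compared with cell state as a term. The choice used the same 4 values of each gene, so the clone contrast is not fully separate from it, and 1 residual degree of freedom remained. No gene passed: 0 of 12336 (0%) had a limma adjusted p under 0.05, and 1599 had an unadjusted p under 0.05. Msln was lower in 15C7 than in 19H5 by 1.44 log2 units (SE 0.117) in both cell states alike, at -1.35 within Bil_2D and -1.54 within Hep_3D. Its unadjusted limma p was 0.000716 and its adjusted p 0.188 (0.184 to 1 over the alternatives). Dio3 was higher in 15C7 by 0.83 (SE 0.415, adjusted p = 0.485), with 1.53 within Bil_2D and 0.13 within Hep_3D. The clone difference was 0.15 for Sprr1a (SE 0.126, limma adjusted p = 0.632), -0.39 for Fscn1 (SE 0.256, 0.559) and -0.22 for Ckb (SE 0.362, 0.803).

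Likeness between profiles was measured as the root mean square distance between log2(TPM + 1) values after centring each gene on its mean over the 4 libraries. Among the 5 genes Ckb and Dio3 were closest (0.527 log2 units), then Fscn1 and Ckb (0.591) and Msln and Fscn1 (0.659). Sprr1a lay 2.66 to 3.18 from the others. The nearest other genes were Krt19 (2.27), Hmga1b (2.74) and Id3 (2.91) for Sprr1a, and Stra6 (0.507), Hmga1b (0.735) and Gm12603 (0.786) for Msln. For Fscn1 they were Hmga1b (0.276), Stra6 (0.478) and Serpinb9b (0.518), and for Ckb Gm12603 (0.205), Snord17 (0.329) and Clca3b (0.353). For Dio3 they were Rasl11a (0.178), Snord17 (0.335) and Cyr61 (0.39). Rasl11a, a small GTPase of the Ras type, had 66.3 and 18.8 TPM in Bil_2D, against 0.256 and 0.305 TPM in Hep_3D, with the higher biliary value in clone 15C7 as for Dio3. These distances rest on 4 libraries. They include the difference between states that chose the 5 genes, so genes high in the same ranking lie near them by construction. Krt19, Hmga1b and Id3 stood at ranks 2, 4 and 5 of it, and at 2.27 or more Sprr1a had no close profile.

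The labels were checked against marker genes. Of 15 biliary markers 12 met the filter, and 6 rose (among them Krt19 and Krt7), 2 fell (Spp1 and Ggt1) and 4 did not pass the test. As 51.9% of all genes rose and 6.8% fell, the share of these markers that rose was near that of all genes. After median-of-ratios scaling 3 rose and 3 fell, with Krt7 among those no longer called, where 9.54% of all genes rose and 11.9% fell. Without 1 library 3 to 6 rose, with 3 without Bil_2D clone 19H5 and 4 without Bil_2D clone 15C7, and 0 fell without either Hep_3D library and 1 without either Bil_2D library. The calls of Krt7 (adjusted p = 0.0392) and Spp1 (0.0359) were lost in 3 and all 4 of the leave-outs. With clone as a block Sox9, Prom1 and Onecut1 also passed (limma adjusted p = 0.0302, 0.022 and 0.0186) and Spp1 did not (0.0611). Epcam was at most 2.59 TPM, and Cftr and Sctr, genes of mature duct cells, at most 0.0885 TPM. Of 15 hepatocyte markers 0 rose, 11 fell and 4 did not pass the test, of which Ttr, Serpina1a and Tdo2 passed with clone as a block (limma adjusted p = 0.0377, 0.0137 and 0.0454). Cps1, Arg1, Tat, G6pc and Tdo2 met the filter only through Hep_3D, so they could not be called higher in Bil_2D. Alb stood at 140 and 18.4 TPM in Bil_2D, against 15033 and 11216 TPM in Hep_3D. Markers of other cell types were low in the biliary libraries. The 13 fibroblast and stellate markers summed to 5.11 and 1.45 TPM in Bil_2D, against 180 and 3.85 TPM in Hep_3D, where Dcn alone gave 178 TPM in clone 15C7. The 10 endothelial markers summed to at most 0.526 TPM in any library. The 10 leukocyte markers summed to 7.35 and 14.0 TPM in Bil_2D, against 3.08 and 3.59 TPM in Hep_3D. Among them Cd68 gave 4.50 and 11.7 TPM in Bil_2D, against 0.674 and 1.74 TPM in Hep_3D. Cd68 was called higher (limma adjusted p = 0.0322), though not on the median-of-ratios scale (0.141). The part of these cell types in the results was not tested. Between 11247 and 12266 genes reached 1 TPM per library. TPM keep no depth, so the counting error behind each value is unknown.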

How the data were processed

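RNA was sequenced in 4 libraries, 2 per group, grouped by the sample titles. The authors deposited a table of TPM for 24493 gene symbols, and Salmon, DESeq2 and mm10 are named in the submitters' processing notes, without versions or roles. TPM add up to 1000000 in each library and keep no depth, so counting error is unknown. Nothing says that the libraries came from separate animals, so p-values reflect only how far these samples differ, which may be technical.

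The 12336 genes that reached 1 TPM in at least 2 libraries were compared on the log2(TPM + 1) scale by limma 3.58.1 in R 4.3.3 (lmFit, eBayes with trend, two-sided, no block), Benjamini-Hochberg adjusted and called under 0.05, with 2 residual degrees of freedom. Genes that reached 1 TPM only in the libraries of 1 group, such as Actn3 in Hep_3D, could be called higher only in that group on the TPM scale. The fits were tested on simulated data. Alternatives were pseudocounts of 0.1 and 5, no filter, a filter of 5 TPM, median-of-ratios scaling, clone as a block and leaving out each library. The clone numbers in the labels pair the libraries, and libraries of the same clone deviated together from their group means (r = 0.414 over genes).

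Genes were named by rule: the 5 members, the 3 nearest profiles to each, the 10 other genes with the largest difference, up to 4 called genes per direction in each related list, relatives of the members, the Dlk1-Dio3 locus and the markers. Other genes named, such as neighbours within 200 kb, were chosen after their values were seen. Members and lists were chosen with earlier results of these data known. Coding identity came from global alignment of GENCODE coding sequences in Biopython 1.88. Promoters came from RefSeq, GRCm38.p6. Some genes that the rule names are not reported here.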

Additional observations from a re-analysis of the deposited data

Results flagged for a closer look

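In 2 of the 5 genes the clone difference had opposite signs in the cell states, which was not tested because each state has 1 library per clone. For Fscn1 the log2 difference 15C7 minus 19H5 was -0.785 within Bil_2D and 0.00835 within Hep_3D. Its Hep_3D values were nearly equal and under 1 TPM, so they show no order of the clones. For Ckb it was 0.408 within Bil_2D and -0.853 within Hep_3D.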

How the results depend on the processing

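Sprr1a ranked 1 in all 10 planned settings, with a difference of 10.37 to 11.8, while the ranks reached 15 for Msln, 14 for Fscn1, 51 for Ckb and 49 for Dio3, whose difference ran from 3.13 to 7.20. Counts given next are higher and then lower calls in Bil_2D. On the median-of-ratios scale they were 1177 and 1465 over all genes, mesothelial genes had 0 higher, actin bundling genes 8 higher, creatine and adenylate kinase genes 2 lower and thyroid hormone genes 0 higher. With clone as a replicate block 7172 genes rose and 978 fell, and 2 actin bundling genes fell. The replicate block on the median-of-ratios scale, chosen after seeing the data, gave 1449 and 1744 over all genes, mesothelial 0 higher, actin bundling 2 lower, creatine and adenylate kinase 2 lower, and thyroid hormone 0 higher and 13 lower. A filter of 5 TPM gave 0 actin bundling genes lower. No filter gave 2 creatine and adenylate kinase genes lower and 3 thyroid hormone genes higher.

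Leaving out 1 library, on either scale (the median-of-ratios runs were added after seeing the data), gave 20 to 3950 genes higher and 168 to 595 lower. Higher calls ranged over 0 to 10 for cornified envelope, 0 to 1 for mesothelial, 0 to 12 for actin bundling, 0 to 2 for creatine and adenylate kinase, 0 to 2 for thyroid hormone and 0 to 1 for Dlk1-Dio3 locus genes. Lower calls ranged over 0 to 1 for actin bundling, 0 to 0 for creatine and adenylate kinase and 2 to 5 for thyroid hormone genes. These fits assume that a group's remaining library varies as the other group does. The cause of these shifts was not tested. The clone comparison gave 0 calls in every alternative tested, with 169 genes at an unadjusted p under 0.05 when cell state was left out. Its leave-outs are values with no test, and over them the clone difference ran from -0.785 to 0.00835 for Fscn1 and from -0.853 to 0.408 for Ckb.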
